A study of Mus musculus with 6 samples.

Results

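The 8 genes described here encode enzymes that cut and finish precursor proteins, most of them inside secretory granules, and proteins of the granule membrane. They are Pcsk1, Pcsk2, Furin, Cpe, Pam, Slc30a8, Ptprn and Ptprn2, taken by their GENCODE M21 symbols (GRCm38) from a table of 46983 mouse genes. All 8 were found once and all 8 passed the filter on low counts. Polyadenylated RNA was counted in wild-type pancreatic islets kept in CMRL medium for 24 h at low (non-stimulating) glucose, with 3 libraries, or at high (stimulating) glucose, with 3 libraries. All 6 libraries share the genotype, the medium and the time. Glucose concentrations, strain, ages and numbers of animals are not stated in the labels. The comparison asks how these transcripts differ between islets at stimulating and at non-stimulating glucose.

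Islet hormones are made as longer precursors. Proprotein convertases cut the precursor at pairs of basic residues, carboxypeptidase E trims the exposed basic residues, and peptidylglycine alpha-amidating monooxygenase converts a C-terminal glycine to an amide in the peptides that carry one. In beta cells the finished insulin is stored with zinc, which a transporter of the granule membrane brings in. The granule membrane also holds a pair of receptor-type tyrosine phosphatase relatives without usual phosphatase activity, which are known as autoantigens in type 1 diabetes.

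Library totals ran from 10596020 to 15846235 counts. The libraries were not pure islet: 20 markers of acinar cells, the enzyme-secreting cells of the exocrine pancreas, took 43.9% to 58.3% of the counts at low glucose and 11.2% to 22.4% at high glucose. The 5 hormone genes Ins1, Ins2, Gcg, Sst and Ppy together took 1.59% to 3.39% at low and 2.22% to 6.38% at high glucose. The 8 genes took 0.156% to 0.319% and 0.456% to 1.02%. Beta-cell (Ins1, Ins2), alpha-cell (Gcg) and delta-cell (Sst) transcripts were present in every library. Levels are given as CPM, counts per 1000000 after TMM scaling, which sets libraries on a common scale by the bulk of their genes. In such bulk RNA fewer cells of a type and less RNA per cell cannot be told apart.

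Of the 8 genes, 3 rose at high glucose (Ptprn, Pam and Pcsk1), 2 fell (Slc30a8 and Ptprn2), and Pcsk2, Cpe and Furin did not pass the test. The test was edgeR's quasi-likelihood F-test over 13996 genes, with a Benjamini-Hochberg adjusted p under 0.05 as the threshold. Over all genes tested 27.5% passed, 13.3% higher and 14.2% lower. The median log2 fold change (high minus low) was 0.37 over the 8 genes and 0.01 over all genes tested. The low and high glucose libraries did not overlap for the 5 genes that passed, a separation that 45.9% of all tested genes showed. Whether replicates are separate mice or cultures is not labelled. The p-values therefore rest on a spread between libraries that may be technical.

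**Figure D1:**
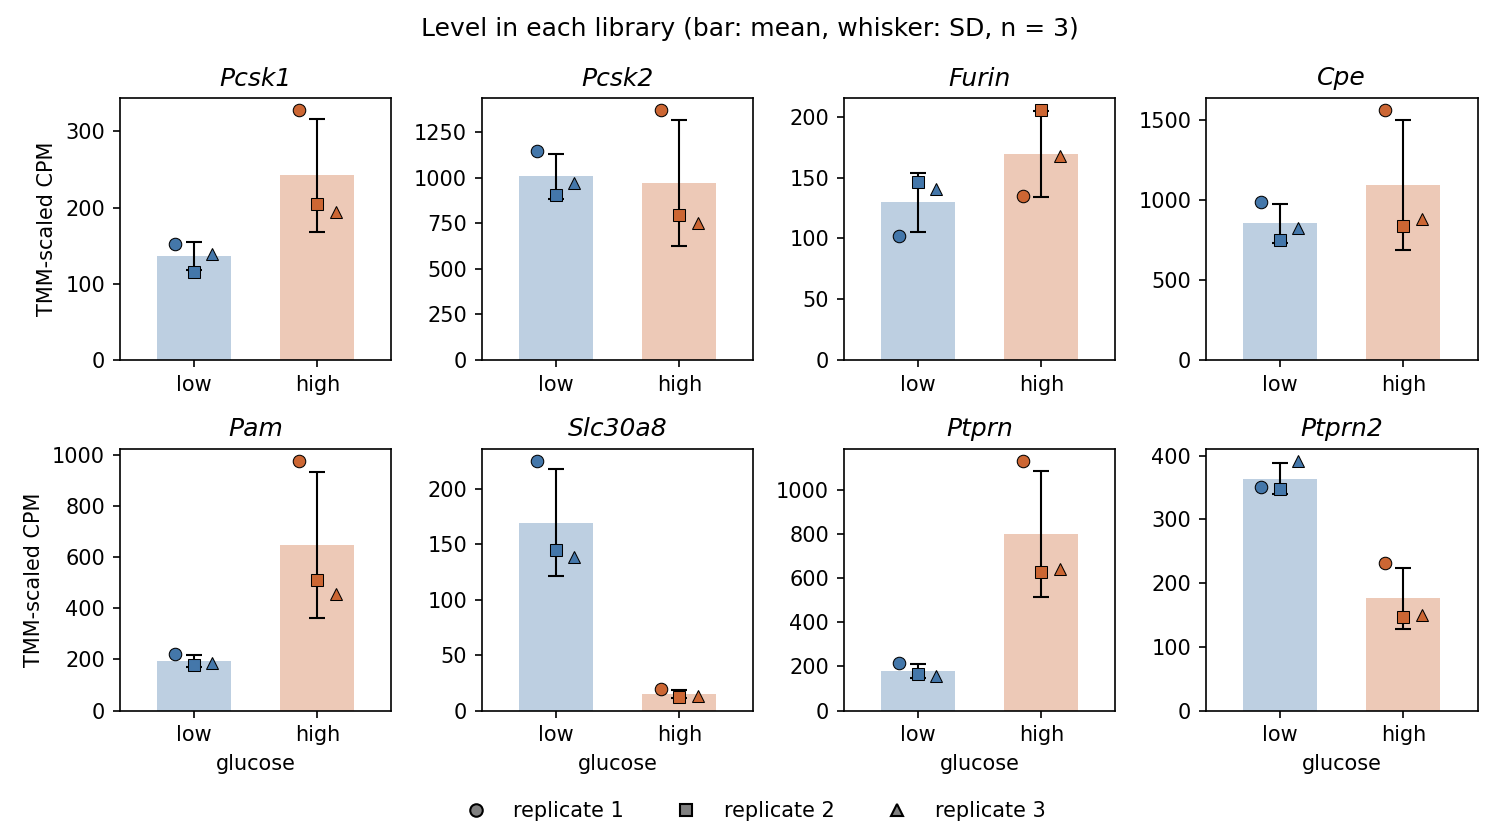
TMM-scaled CPM (y axis, from 0, each panel on its own scale) of the 8 genes at low and high glucose (x axis), with bars for the mean, whiskers for the SD of 3 libraries and a symbol for each replicate number. Slc30a8 drops from 138 to 225 CPM at low glucose to 12.3 to 19.1 at high glucose, Ptprn climbs from 155 to 215 to between 628 and 1130, and the groups overlap for Pcsk2, Furin and Cpe.

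The sequences before a listed RefSeq start site are shown for 5 of the genes. In the convertase pair 1 member passed the test, and the members of the phosphatase-related pair moved in opposite directions with TMM scaling. The sequences allow both pairs to be set side by side, together with Pam. Each covers bases 225 to 32 before the first RefSeq start listed for the gene (GRCm38.p6), read 5′ to 3′ on the gene's strand. The Ptprn window lies inside the GENCODE gene, in an intron of a transcript that starts further upstream. Capitals mark matches to the motifs searched.
Pcsk1, chr13:75089632-75089825, plus strand: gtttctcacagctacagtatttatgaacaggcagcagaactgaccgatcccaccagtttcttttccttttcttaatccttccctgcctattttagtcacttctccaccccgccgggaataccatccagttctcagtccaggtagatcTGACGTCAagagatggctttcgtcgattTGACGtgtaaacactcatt
Pcsk2, chr2:143545908-143546101, plus strand: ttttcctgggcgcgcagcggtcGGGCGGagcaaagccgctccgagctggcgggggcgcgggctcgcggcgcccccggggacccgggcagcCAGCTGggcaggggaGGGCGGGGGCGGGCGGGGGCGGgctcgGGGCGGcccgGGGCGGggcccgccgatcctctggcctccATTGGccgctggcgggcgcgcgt
Pam, chr1:98095678-98095871, minus strand: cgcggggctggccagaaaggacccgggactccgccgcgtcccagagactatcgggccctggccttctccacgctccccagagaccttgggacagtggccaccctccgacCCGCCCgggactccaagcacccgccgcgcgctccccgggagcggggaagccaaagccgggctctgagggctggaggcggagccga
Ptprn, chr1:75264240-75264433, minus strand: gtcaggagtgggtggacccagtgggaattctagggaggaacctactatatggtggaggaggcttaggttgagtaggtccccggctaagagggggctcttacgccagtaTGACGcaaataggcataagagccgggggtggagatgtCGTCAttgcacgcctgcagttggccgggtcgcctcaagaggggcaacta
Ptprn2, chr12:116485495-116485688, plus strand: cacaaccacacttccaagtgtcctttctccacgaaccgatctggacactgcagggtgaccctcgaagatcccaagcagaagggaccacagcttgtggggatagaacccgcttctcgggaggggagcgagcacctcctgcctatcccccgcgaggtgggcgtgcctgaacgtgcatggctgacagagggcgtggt

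The motifs searched on both strands were the cAMP response element TGACGTCA, its part TGACG, the AP-1 site TGANTCA, the E-boxes CACGTG and CAGCTG, the GC box GGGCGG, the CCAAT box CCAAT and the TATA box TATAAA. The part TGACG lies inside TGACGTCA and is matched by it. Pcsk1 holds the whole TGACGTCA, 78 to 71 bases before the start, which 1.13% of 27025 promoter windows of the same place and length hold. It also holds TGACG at 50 to 46 bases before the start. Ptprn holds TGACG on the printed strand and also on the other strand, where the match is printed as CGTCA. Of all windows 13.6% hold that part at least once. Pcsk2 holds 7 overlapping or separate copies of GGGCGG, a motif that 27.4% of windows hold, with 83.5% G and C against a median of 52.1% over all windows. Pam holds 1 GGGCGG match on the other strand, and Ptprn2 holds none of the letters searched in this window. A match is a description of the letters only. The RefSeq table used here covered 6 of the 8 genes; Cpe and Slc30a8 were without an entry, and the Furin sequence is not shown.

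The convertases came first in the order of processing, and 1 of the 3 passed the test. Pcsk1 (chromosome 13, 75089826 to 75134861) encodes prohormone convertase 1/3, which makes the first cut in proinsulin. Its level was 152, 116 and 140 CPM in low glucose replicates 1 to 3 and 327, 205 and 194 CPM in high glucose replicates 1 to 3. All 3 high glucose libraries lay above all low glucose libraries, and replicate 1 was the highest of the high glucose group. Pcsk1 rose by 0.83 ± 0.25 (log2, SE), a 1.78-fold change, with an edgeR adjusted p of 0.0441. This call was close to the threshold: the adjusted p was 0.0800, 0.158 and 0.0991 without low glucose replicate 1, 2 or 3, and 0.0604 and 0.0622 without high glucose replicate 2 or 3, while the log2 fold change stayed between 0.55 and 0.98 with any 1 library left out. With a minimum count of 30 in the filter the adjusted p was 0.0563.

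Pcsk2 (chromosome 2, 143546156 to 143816285) encodes prohormone convertase 2, which processes proglucagon in alpha cells and takes part in proinsulin processing. It had 1145, 907 and 974 CPM at low and 1370, 794 and 752 CPM at high glucose. The groups overlapped, with the highest and the lowest value both at high glucose, and the log2 fold change was -0.05 ± 0.31 (edgeR adjusted p 0.911). The interval of 2 SE either side ran from -0.67 to 0.57. The antisense genes Pcsk2os1 and Pcsk2os2 share 260 and 99 exonic bases with Pcsk2, and each was counted at 132 reads or fewer in a library.

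Furin (chromosome 7, 80388585 to 80405436) encodes the convertase of the trans-Golgi network, which is made in most cell types and cuts many precursors outside granules. It had 102, 146 and 141 CPM at low and 135, 205 and 168 CPM at high glucose. The ranges overlapped, and the log2 fold change of 0.38 ± 0.23 did not pass (edgeR adjusted p 0.239). Furin did pass with totals without acinar markers (log2 fold change 0.77, edgeR adjusted p 0.0137). It also passed with library totals (log2 fold change 1.57, edgeR adjusted p 0.00125). In the high glucose group Furin was lowest in replicate 1, at 0.721 times the mean of replicates 2 and 3, whereas the other 7 genes were highest there. The antisense gene Gm44851, which shares 118 exonic bases with it, had at most 2 counts.

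Within a library, the ratio of 2 genes does not depend on how libraries are scaled. The log2 ratio of Pcsk1 to Pcsk2 counts was -2.91, -2.97 and -2.80 at low and -2.07, -1.95 and -1.95 at high glucose. Pcsk1 therefore stood at a higher count relative to Pcsk2 in every high glucose library, by 0.90 on average, with the exact two-sided permutation p at 0.1, the smallest that 3 against 3 libraries can give.

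The carboxypeptidase gene did not pass and the amidating enzyme gene rose. Cpe (chromosome 8, 64592542 to 64693054) encodes carboxypeptidase E, and had 987, 750 and 822 CPM at low and 1558, 836 and 878 CPM at high glucose. The groups overlapped, since replicates 2 and 3 at high glucose lay inside the low glucose range, and the log2 fold change was 0.35 ± 0.32 (edgeR adjusted p 0.442; 0.01 without high glucose replicate 1). Pam (chromosome 1, 97795114 to 98095646) encodes the amidating enzyme. Its transcript had 221, 177 and 186 CPM at low and 975, 510 and 457 CPM at high glucose, so every high glucose library lay far above every low glucose library. Pam rose by 1.73 ± 0.33, a 3.33-fold change, with an edgeR adjusted p of 0.00941, which became 0.0550 without low glucose replicate 2. The gene B230216N24Rik shares 188 exonic bases with Pam on the same strand and had at most 101 counts. Cpe and Pam counts moved apart within the libraries, from a log2 ratio of 2.13 ± 0.04 to 0.78 ± 0.14 (Cpe to Pam, SD, n = 3 each; exact permutation p 0.1).

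The zinc transporter gene fell. With TMM scaling its log2 fold change was the largest in size of the 8, while with library totals that of Ptprn was larger (3.31 against -2.41). Slc30a8 (chromosome 15, 52295553 to 52335798) encodes ZnT8, which loads zinc into insulin granules. It had 225, 145 and 138 CPM at low and 19.1, 12.3 and 13.1 CPM at high glucose. The lowest low glucose value was far above the highest high glucose value. Slc30a8 fell by 3.51 ± 0.28, an 11.4-fold drop, with an edgeR adjusted p of 6.27e-04, and it passed under every alternative tried. Only 2.49% of all tested genes had a lower log2 fold change.

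Transcripts of intestinal epithelium moved in the same direction as Slc30a8. All 7 measured genes of a list of 9 intestinal markers fell, and the list summed to 3961, 3115 and 1247 CPM at low and 142, 29.5 and 24.2 CPM at high glucose. The defining factor genes Cdx1 and Cdx2 were near 0 at high glucose, with 0 to 2 counts in a library, against 8 to 117 at low glucose. The part of these cells in the fall of Slc30a8, or in the falls of Pcsk5, Slc30a10 and Ptprh given below, was not tested. Of 7 beta-cell markers 3 fell (Mafa, Slc2a2 and Ucn3) and none rose, with a median log2 fold change of -1.01 (0.12 with library totals, where 2 fell), and their part was not tested either. Mafa, a beta-cell transcription factor gene, fell from 92.3 ± 3.00 to 6.89 ± 2.16 CPM (SD, n = 3 each), whereas Ins1 (log2 -0.43 ± 0.44, edgeR adjusted p 0.494) and Ins2 (-0.41 ± 0.51, adjusted p 0.580) did not pass.

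With TMM scaling the phosphatase-related pair of the granule membrane moved in opposite directions. Ptprn2 did not pass with library totals, hormone scaling or totals without acinar markers (edgeR adjusted p 0.711, 0.366 and 0.0987). Ptprn (chromosome 1, 75247027 to 75264502) encodes IA-2, also called ICA512, and had 215, 163 and 155 CPM at low and 1130, 628 and 641 CPM at high glucose. Every high glucose library was far above every low glucose library. Ptprn rose by 2.17 ± 0.31, a 4.49-fold change, with an edgeR adjusted p of 0.00335, and it passed under every alternative tried. The antisense gene Gm28294 shares 189 exonic bases with it and had at most 8 counts.

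Ptprn2 (chromosome 12, 116485720 to 117276849) encodes phogrin, the close relative of IA-2. It had 351, 348 and 392 CPM at low and 232, 147 and 150 CPM at high glucose. The low glucose values lay within a narrow range and above all high glucose values. Ptprn2 fell by 1.05 ± 0.23, a 2.06-fold drop, with an edgeR adjusted p of 0.0165, a direction that turned with library totals (log2 fold change 0.16). Its adjusted p was 0.0643 or 0.0548 with low glucose replicate 2 or 3 left out, and 0.0644 or 0.0811 with high glucose replicate 2 or 3 left out. The log2 ratio of Ptprn to Ptprn2 counts was -0.70, -1.09 and -1.33 at low and 2.28, 2.10 and 2.10 at high glucose. Ptprn2 thus had more counts than Ptprn in each low glucose library and fewer in each high glucose library, a shift of 3.20 (exact permutation p 0.1).

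**Figure D2:**
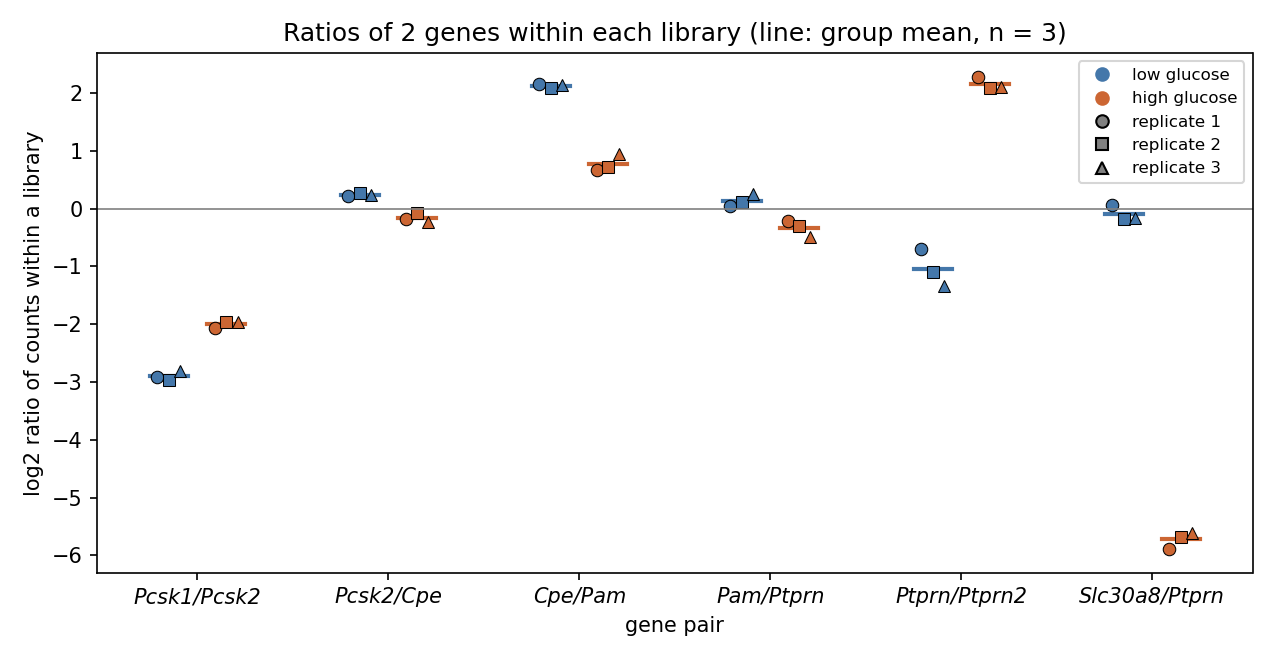
Log2 ratio of the counts of 2 genes within each library (y axis) for 6 of the 28 gene pairs (x axis), with low glucose libraries in blue, high glucose libraries in orange, a symbol for each replicate number and a line for each group mean. Slc30a8 to Ptprn falls from about the same count for both genes (mean -0.09) to -5.72, and Ptprn to Ptprn2 rises from -1.04 to 2.16.

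Across all 28 pairs of the 8 genes the ratios of the groups were apart for 25 and overlapped for 3. Each of the 3 had Furin as a partner (with Pcsk1, Pcsk2 and Cpe). The pairs reuse the same 8 genes, and the share apart among pairs of other genes was not computed. The 25 had an exact p of 0.1 and an adjusted p of 0.112 over the 28 pairs, so none could pass at this number of libraries. The smallest shift among the 25 was that of Pcsk2 to Cpe, from 0.24 ± 0.03 to -0.16 ± 0.08 (log2, SD, n = 3 each). The largest shift was that of Slc30a8 to Ptprn, at -5.63, which lay between -5.69 and -5.55 with any 1 library left out. The log2 ratio of Pam to Ptprn, both higher at high glucose, was 0.04, 0.11 and 0.26 at low and -0.21, -0.30 and -0.49 at high glucose.

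Exon length was taken over the merged exons of all annotated transcripts of a gene, from 1971 bases (Slc30a8) to 11892 (Pam). The order of the genes depends on that choice. Per kilobase of exon, Cpe was the most abundant of the 8 transcripts in both groups, with 327 ± 46.6 CPM per kb in the low glucose group and 418 ± 155 in the high glucose group (SD, n = 3). At low glucose the order below it was Pcsk2, Slc30a8, Ptprn2, Ptprn, Pcsk1, Pam and Furin. Ptprn2 and Ptprn (42.3 ± 2.83 and 41.9 ± 7.64 CPM per kb) overlapped there, as did Pam and Furin, and the other neighbours were apart. At high glucose the order was Cpe, Ptprn, Pcsk2, Pam, Pcsk1, Ptprn2, Furin and Slc30a8. Slc30a8 went from the third place (85.9 ± 24.4) to the last (7.52 ± 1.88), and Ptprn from the fifth to the second (188 ± 67.4). The ranges of Ptprn and Pcsk2, of Pam and Pcsk1 and of Ptprn2 and Furin overlapped at high glucose, although Ptprn exceeded Pcsk2, and Pam exceeded Pcsk1, within each of the 3 libraries. Without division by length, Pcsk2 was above Cpe at low glucose (means of 1009 and 853 CPM). Slc30a8 (169 CPM) was then below Ptprn2 (363), Pam (195) and Ptprn (178) at low glucose. At high glucose Cpe (1090 CPM) remained above Pcsk2 (972), and Slc30a8 (14.8) remained last.

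**Figure D3:**
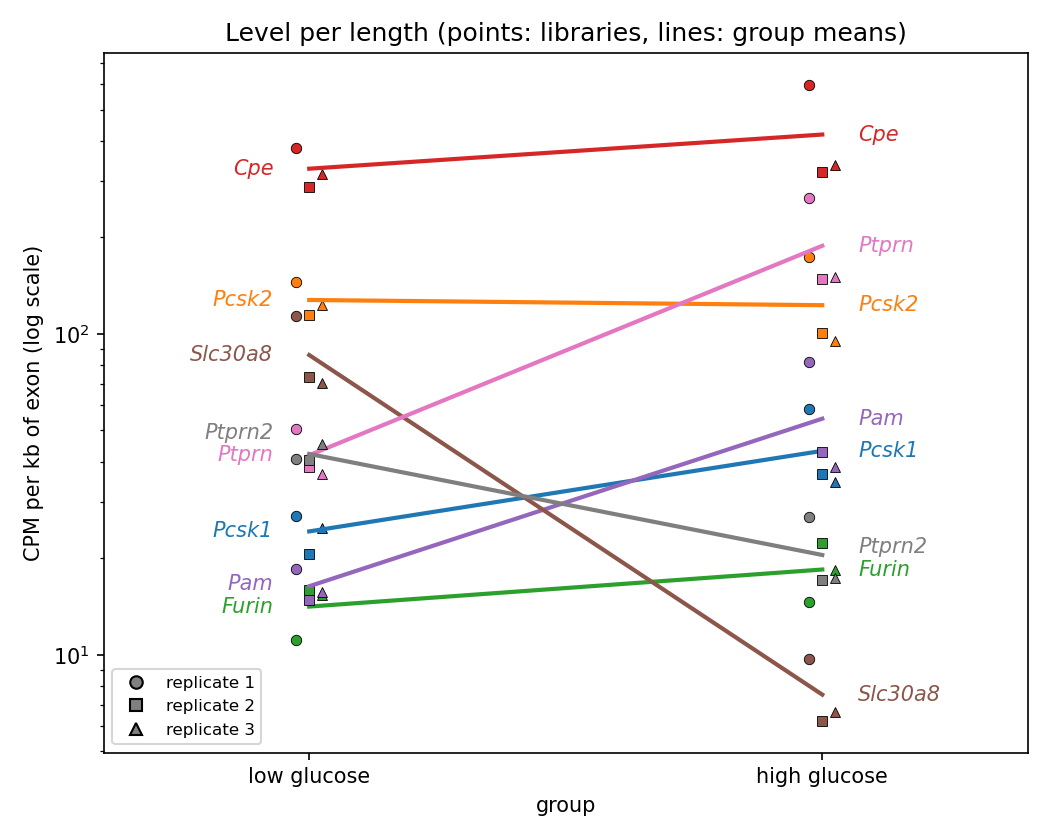
TMM-scaled CPM per kilobase of exon (y axis, log scale) at low and high glucose (x axis), with 1 line per gene through the group means and a symbol for each of the 3 libraries. Exon length is that of the merged exons of all annotated transcripts. On this measure the line of Slc30a8 falls from the third place to the last, that of Ptprn rises from the fifth to the second, and Cpe is on top in both groups.

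High glucose replicate 1 stood apart within its group. Its summed CPM of the 5 hormone genes was 2.01 times the mean of replicates 2 and 3, and it had the lowest share of acinar counts (11.2%). Low glucose replicate 1 differed from its group in the same direction, with a hormone sum 1.19 times the mean of replicates 2 and 3. It also had the lowest acinar share at low glucose (43.9%), and 6 of the 8 genes were highest in it. Of the 8 genes, 7 were higher in high glucose replicate 1 than in high glucose replicates 2 and 3. The share over all genes was not computed for either library. Set against the hormone transcripts of the same library, the spread at high glucose was smaller for those 7 genes and larger for Furin. Ptprn had 31.6, 38.6 and 33.1 counts per 1000 hormone counts in high glucose replicates 1 to 3, against 5.96, 5.82 and 4.80 at low glucose. Pcsk1 had 9.15 to 12.6 at high and 4.13 to 4.32 at low glucose. Slc30a8 had 0.533, 0.756 and 0.677 at high and 6.23, 5.16 and 4.28 at low glucose.

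Pcsk2 and Cpe, whose CPM overlapped between the groups, were apart on this measure. The share of all genes apart on it was not computed. The summed CPM of the 5 hormone genes was 36084, 28079 and 32352 at low and 35767, 16244 and 19339 at high glucose. Pcsk2 had 30.1 to 32.3 counts per 1000 hormone counts at low and 38.3 to 48.8 at high glucose. Cpe had 25.4 to 27.4 at low and 43.5 to 51.4 at high glucose. Ptprn2 remained lower, at 9.71 to 12.4 against 6.48 to 9.04, and Furin overlapped, at 2.83 to 5.22 against 3.76 to 12.6. When library sizes were set by the 5 hormone genes in the edgeR fit, 3 of the 8 rose, where 14.4% of all genes did, and 1 fell, where 6.34% did. With log2 fold changes in brackets, Ptprn (2.64), Pam (2.18), Pcsk1 (1.33) and Slc30a8 (-3.00) passed there, and Ptprn2 (-0.56, edgeR adjusted p 0.366), Cpe (0.82), Furin (1.02) and Pcsk2 (0.42) did not.

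The scaling moved all genes, and the 8 with them. With library totals in place of TMM the median log2 fold change of all tested genes was 1.16, so that 59.7% of genes were higher and 4.49% lower. Of the 8 genes, 6 were then higher and only Slc30a8 was lower (-2.41). Ptprn (3.31), Pam (2.91), Pcsk1 (2.00), Furin (1.57) and Cpe (1.52) lay above that median, Pcsk2 (1.11) and Ptprn2 (0.16, edgeR adjusted p 0.711) below it. As a share of all counts Ptprn2 took 0.0198% to 0.0329% at low and 0.0201% to 0.0414% at high glucose, which overlapped. The order of the 8 fold changes was the same with TMM, hormone and library total scaling. A change of scaling moves the log2 fold changes of all genes by a similar amount, so their order is largely kept by construction.

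**Figure D4:**
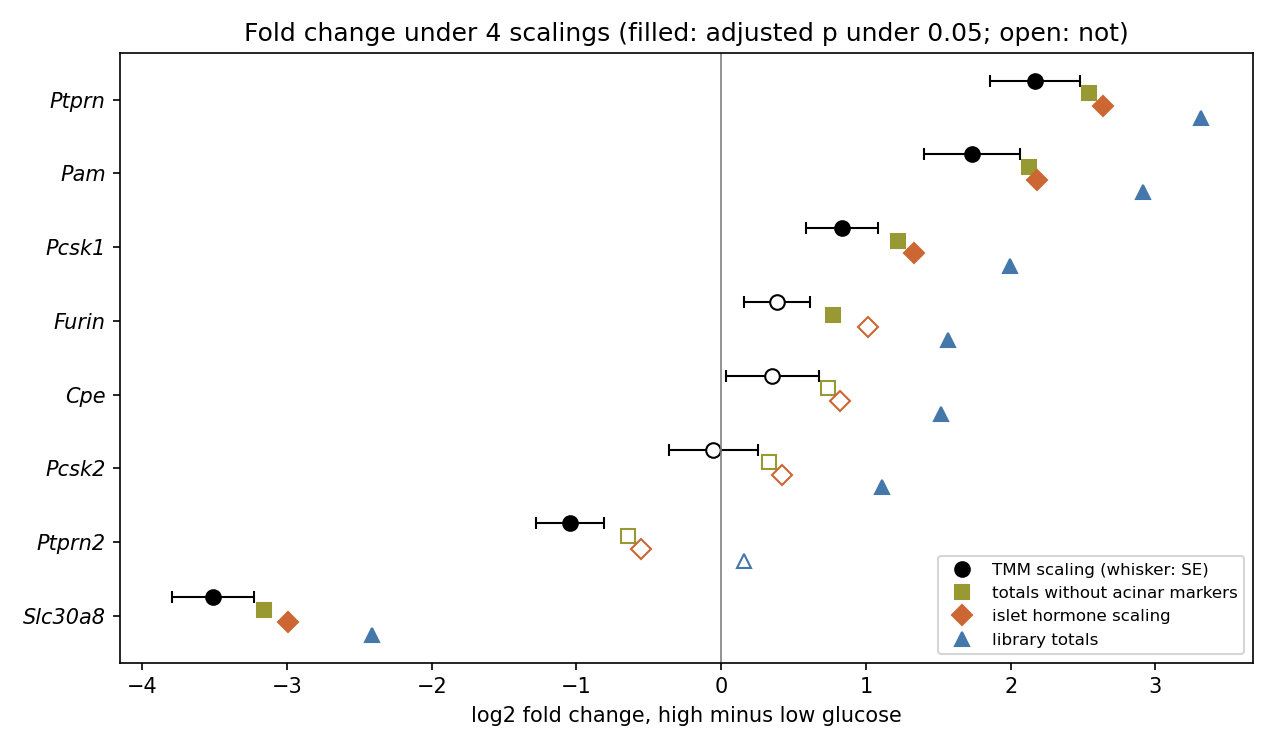
Log2 fold change, high minus low glucose (x axis), of the 8 genes (y axis) under TMM, totals without acinar markers, islet hormone scaling and library totals, with filled symbols where the edgeR adjusted p was under 0.05 and open symbols where it was not, and whiskers for the SE under TMM. Slc30a8 is filled below 0 and Ptprn, Pam and Pcsk1 are filled above 0 under all 4 scalings, while Ptprn2 is filled only under TMM.

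Calls among the partners of the processing enzymes were about as frequent as the 27.5% over all genes. Of 15 other convertase, carboxypeptidase, glutaminyl cyclase, chaperone and inhibitor genes, 14 were measured, 2 rose and 2 fell, with a median log2 fold change of -0.06 (8 rose and 1 fell with library totals, 0 rose and 1 fell without low glucose replicate 2). Scg5, which encodes the Pcsk2 chaperone 7B2, had 152 ± 26.1 and 227 ± 82.5 CPM at low and high glucose (edgeR adjusted p 0.158). Pcsk1n, which encodes the Pcsk1 inhibitor proSAAS, had 213 ± 20.9 and 209 ± 96.8 CPM (adjusted p 0.954). Ctsl, a cathepsin gene, rose by 2.22 ± 0.44, from 273 ± 99.8 to 1272 ± 563 CPM. Pcsk5, another convertase gene, fell by 4.68 ± 0.53, from 14.2 ± 7.31 to 0.539 ± 0.238 CPM, and Mbtps1, the site-1 protease gene, by 0.62 ± 0.13, a direction that turned with library totals (log2 fold change 0.54, higher at high glucose). The Ctsl call was lost without low glucose replicate 2, and that of Mbtps1 without low glucose replicate 2 or high glucose replicate 2 or 3.

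Of the 5 signal peptidase genes, which make the first cut of any secreted precursor, Sec11a rose by 0.92 ± 0.15 and Sec11c fell by 1.16 ± 0.26. With library totals the direction of Sec11c turned (log2 fold change 0.10, higher at high glucose) and 4 of the 5 rose. The 5 had a median of -0.33. Leaving out any 1 of low glucose replicates 2 and 3 and high glucose replicates 2 and 3 ended the Sec11c call.

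Of 6 genes that supply copper and reduced ascorbate, the cofactors of the amidating enzyme, 1 rose and 1 fell. Cyb561, which encodes the granule membrane cytochrome that passes electrons to ascorbate, had 28.8, 28.1 and 32.4 CPM at low and 49.3, 67.6 and 61.9 CPM at high glucose. Its groups did not overlap, and it rose by 1.00 ± 0.16 (edgeR adjusted p 0.00504). The copper importer gene Slc31a1 fell by 0.95 ± 0.14, a direction that turned with library totals (log2 fold change 0.23, higher at high glucose).

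Of the 9 other Slc30 zinc transporter genes, 8 were measured, 1 rose (Slc30a4, by 0.65 ± 0.19) and 1 fell. The rise of Slc30a4 was lost on leaving out any 1 library other than high glucose replicate 1, with hormone scaling and with limma-voom. Slc30a10 fell from 70.3, 47.2 and 10.5 CPM at low glucose to 0.177 CPM in high glucose replicate 1 and no counts in the others. Slc30a5 and Slc30a7, whose products carry zinc into the early secretory pathway, had log2 fold changes of -0.14 ± 0.19 and 0.35 ± 0.13 and did not pass. The median of the 8 was -0.02, against -3.51 for Slc30a8.

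Among 32 genes of granule formation and granule membrane, 31 were measured, none rose and 4 fell (Sort1, Rab37, Sytl4 and Slc18a2), with a median of -0.07. With library totals 23 rose and none fell. Without 1 library 2 (without low glucose replicate 1 or high glucose replicate 3) to 7 (without high glucose replicate 1) fell. Sort1, which encodes the sorting receptor sortilin, fell by 1.33 ± 0.18, and Sytl4, the granuphilin gene, by 1.26 ± 0.28; neither passed with library totals. Neither passed with hormone scaling. The Sytl4 call was also lost with totals without acinar markers and without low glucose replicate 1 or high glucose replicate 2 or 3. The granule SNARE gene Vamp2 had 70.7 ± 13.5 and 69.5 ± 22.3 CPM (edgeR adjusted p 0.949), and Ica1, another islet autoantigen gene, had 67.0 ± 21.1 and 75.9 ± 6.10 CPM (adjusted p 0.581).

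The proton pump that acidifies granules is shared with lysosomes. Of its 23 subunit and accessory genes 19 were measured, 3 rose (Atp6v0e, Atp6v1g1 and Atp6v1h) and none fell, with a median of 0.39 (18 rose with library totals, 5 with the replicate number as a block, 1 without low glucose replicate 2). Atp6v0e rose by 0.90 ± 0.17. Atp6v1g1 did not pass without low glucose replicate 2, and Atp6v1h did not pass without any 1 library other than high glucose replicate 1.

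Of the 18 other receptor-type tyrosine phosphatase genes, 17 were measured, 1 rose (Ptprs) and 5 fell, among them Ptprh, Ptprb and Ptpro. Their median was -0.12, against 2.17 for Ptprn and -1.05 for Ptprn2. With library totals 7 rose and 1 fell, and 2 fell without low glucose replicate 1 or 2 or high glucose replicate 3. With the replicate block none rose (Ptprs, edgeR adjusted p 0.0634) and 6 fell. None rose either with limma-voom or with a minimum count of 30. The same held without low glucose replicate 2 or 3 and without high glucose replicate 2 or 3. Ptpro did not pass without any 1 of the low glucose libraries or without high glucose replicate 3.

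Among the genes of the granule cargo, none of the 7 hormone genes passed (1 rose and 1 fell with the replicate block, and 3 rose with library totals). Iapp had the largest difference of the 7, at 1.22 ± 0.40 (edgeR adjusted p 0.0604). Of the granins Chgb rose by 1.89 ± 0.29 and Vgf by 3.61 ± 0.38, while Chga (-1.05 ± 0.40, edgeR adjusted p 0.0867), Scg2 and Scg3 did not pass. With the replicate block Chga was lower (edgeR adjusted p 0.00993) and Scg3 higher (0.0353), so that 3 granin genes rose and 1 fell. With DESeq2 3 granin genes also rose and 1 fell. With library totals 3 rose, and 1 fell with limma-voom and without high glucose replicate 1. Of 12 islet transcription factor genes none rose and 2 fell, Mafa by 3.74 ± 0.24 and Pdx1 by 1.28 ± 0.27 (7 fell without high glucose replicate 1, 6 fell and 1 rose with the replicate block, 1 fell without low glucose replicate 1 or 2, with hormone scaling and with library totals, where 5 rose). Among the other cell types the samples could hold, 17 of 20 acinar markers fell (9 without low glucose replicate 2 or high glucose replicate 3) and 3 of 8 duct markers (Krt19, Krt7 and Spp1) rose. The other 5 duct markers had negative log2 fold changes and did not pass, and the median of the 8 was -0.27. With the replicate block, and without high glucose replicate 1, 2 duct markers fell. The 9 stellate and fibroblast markers summed to 309 to 405 CPM at low and 44.3 to 265 at high glucose, and 4 of them fell (8 without high glucose replicate 1, 2 without low glucose replicate 2 or high glucose replicate 3, 1 with library totals). The 8 endothelial markers summed to 278 to 340 and 151 to 312 CPM, and the 9 leukocyte markers to 178 to 253 and 28.3 to 216 CPM. Their part in the values of the 8 genes was not tested.

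The genes with the pattern most like each of the 8 were taken as the 2 with the highest Pearson correlation of log2 CPM over the 6 libraries, among 8240 genes with a mean of at least 10 CPM. With 6 libraries in 2 groups such values are high for many genes, and they are given as a description. Ptprn was closest to Gabbr2, a subunit gene of the GABA-B receptor (r = 0.998), and Pde1c, a phosphodiesterase gene (0.997), and 210 genes exceeded 0.95. Pam was closest to Syt4, a synaptotagmin gene (0.998), and Ildr1 (0.998). Pcsk1 was closest to Tmem65 (0.997) and to Iapp (0.996), which encodes the amyloid peptide stored with insulin. Slc30a8 was closest to Sult6b2 (0.998) and to the intestinal sucrase gene Sis (0.997), and 361 genes exceeded 0.95. Ptprn2 was closest to Ggact (0.994) and the cathepsin gene Ctsf (0.994), and Furin to Ythdf1 (0.994) and Ccdc12 (0.994). Pcsk2 was closest to Casc4 (0.992) and Creb3l2 (0.988), and Cpe to Map6 (0.989) and the proton pump gene Atp6v0e2 (0.988).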

How the data were processed

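Gene counts of 6 libraries were used as the authors deposited them (raw counts). The submitters' processing notes name GRCm38, HTSeq 0.6.1p1 and STAR 2.7.3a. Annotation release, strand setting and read filters are not given in the sources used here, so reads of antisense and overlapping genes cannot be told apart. Columns were matched to samples by name. Symbols, coordinates and exon lengths came from GENCODE M21, and promoter sequences from RefSeq (GRCm38.p6). The 8 genes and the lists were chosen with earlier results of these data known.

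High and low glucose were compared with edgeR 4.0.16 (R 4.3.3, TMM, quasi-likelihood F-test) on 13996 genes that passed filterByExpr (minimum count 10, minimum total 15). SE is the log2 fold change over the square root of F. DESeq2 1.42.0 and limma-voom (limma 3.58.1) were run beside it. Tested on simulated data of 13996 genes, the edgeR fit recovered 82 of 100 genes changed 4-fold and 13 of 100 changed 2-fold, with 6 unchanged genes among 101 calls. Only these genes were changed, as many up as down, with no shift in the acinar share. In the data 27.5% of genes passed and the acinar share differed, so the simulated rates may not carry over. Ratios used counts plus 0.5 and exact permutation tests (scipy 1.17.1).

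Besides the 8 genes, Ins1, Ins2, Gcg, Sst, Ppy, Scg5, Pcsk1n, Cyb561, Vamp2 and Ica1, the rule for named genes took up to 3 changed genes with the smallest p from each list and 2 genes of like pattern for each member. Other genes named (such as Slc2a2, Ucn3, Slc30a5, Slc30a7, Slc18a2, Ptprs, Chga, Scg2 and Scg3) were chosen after their values were seen.

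Same-numbered libraries of the 2 groups deviated together from their group means (correlations 0.40, 0.26 and 0.25, with other pairs at -0.31 to 0.07). Deviations from a mean cancel within a group, so these correlations depend on each other and do not establish a pairing. No label states one. The replicate block changed no call among the 8 genes. Within groups, libraries differed beyond sampling noise.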

Additional observations from a re-analysis of the deposited data

How the results depend on the processing

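Of the 8 genes, 5 changed with TMM scaling. Slc30a8 and Ptprn kept their call under each of the 16 alternatives, and Pam under all but the fit without low glucose replicate 2. With 1 library left out the number changed ranged from 2 to 5, the number higher from 1 to 3 and the number lower from 1 to 2; over all genes 1743 (without low glucose replicate 2) to 5685 (without high glucose replicate 1) changed, against 3848 with all libraries. With library totals 8978 genes changed, 6 of the 8 were higher and 1 lower. With totals without acinar markers 4 of the 8 were higher, Furin among them, and 1 was lower. Over all genes 28.7% were higher and 8.4% lower there. With hormone scaling 3 of the 8 were higher and 1 was lower. The replicate block gave 4670 changed genes and the same 5 of the 8; Gcg, Iapp, Chga and Scg3 also passed with it, and Ptprs no longer did. Of all alternatives Gcg passed only with the block, while Iapp also passed with DESeq2, limma-voom and 3 scalings. Other alternatives also gave extra granin calls, or no rise among the other phosphatase genes, as listed above. With library totals the log2 fold change turned to positive for Pcsk2 (1.11), Ptprn2 (0.16), Sst (1.15), Pcsk1n (1.17), Vamp2 (1.13), Mbtps1 (0.54), Sec11c (0.10), Slc31a1 (0.23), Casc4 (1.10), Ggact (0.62) and Ctsf (0.25). That setting moves the median of all genes from 0.01 to 1.16. Of 36 changed genes named by rule, the filter with a minimum count of 30 lost 2 (Pcsk1 and Tmem65), hormone scaling lost 11, and leaving out low glucose replicate 2 lost 15. The least counted of the 8 genes, Slc30a8, had 246 or more counts in each library.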
